A study of Mus musculus with 8 samples.

Results

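Clec4d, Clec4e, Clec4n, Clec5a and Clec7a encode C-type lectin receptors of myeloid cells. They were followed in macrophages grown from mouse bone marrow, across LPS time, CD14 deficiency and calcium chelation. All probe sets that the platform annotation gives to these 5 genes alone were taken, which were 7 of the 22690 probe sets on the array and 5 of 12394 named genes. Clec4e and Clec4n had several probe sets each, and the other genes had 1. All 5 genes passed the filter on dim genes in every comparison.

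Each of 8 groups was measured on 1 Affymetrix array, so no group had a replicate. Marrow of C57BL/6 mice (wild type) or of Cd14-/- C57BL/6 mice (CD14-deficient), aged 6 to 8 weeks in both cases, grew into macrophages over 7 days in medium with serum and the growth factor M-CSF. Cells of both genotypes were taken unstimulated, at 6 h and at 24 h of LPS at 1 µg/ml. LPS is the outer membrane lipid of Gram-negative bacteria and is handed by CD14 to the receptor TLR4. The LPS is called smooth in the labels of the wild-type samples and only LPS in those of the CD14-deficient samples. Wild-type cells also received LPS with EGTA, a chelator of calcium outside the cell, for 6 h or 24 h. EGTA without LPS was not analysed here. The EGTA dose of 2 mM is given in the 24 h label and not in the 6 h label. The unstimulated cells had been plated for 24 h, so at 6 h the time in the plate differed from that of their control. The labels do not say how many mice gave each culture. The series title states the question as gene expression with and without NFAT activation, and its design sets EGTA and CD14 deficiency as ways to block it.

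C-type lectin receptors are surface proteins with a lectin-like domain that binds sugars or lipids of microbes, or products of damaged cells. Clec7a (dectin-1) binds fungal beta-glucan and signals through a tyrosine motif in its own tail. Clec4e (Mincle) binds mycobacterial cord factor and Clec4n (dectin-2) binds fungal mannans, and both signal through the Fc receptor gamma chain Fcer1g. Clec4d (MCL) pairs with Clec4e, and Clec5a (MDL-1) signals through the adaptors Tyrobp and Hcst. The kinase Syk lies below Fcer1g and Tyrobp, with the CARD9 complex further down, and calcium with NFAT forms a branch of dectin-1 signalling. Sugar binding by Clec4n needs calcium, whereas Clec7a binds its ligand without it.

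Values are microarray intensities after quantile normalization, with a floor at 38.4, the 40th percentile of all values. The highest normalized intensity was 18935.5, and the arrays' number limits the precision. Cd14 checked the genotype labels, since it lay at the floor on all 3 CD14-deficient arrays and between 3849.2 and 12515.1 on the 5 wild-type arrays. Of 8 macrophage markers, 7 were on the array, and all 7 were above the filter on every array, with a summed intensity between 49591.4 and 61511.6. All markers of B cells, T cells, NK cells, mast cells and basophils that were on the array lay at the floor throughout. Among 8 neutrophil markers on the array, S100a9 and Ltf stayed at the floor, while S100a8 ran from 90.6 to 506.9, with its 3 highest values on the 24 h arrays, and Camp reached 107.2 on the CD14-deficient 24 h array. Of 5 dendritic cell markers on the array, Itgax alone was above the floor, from 101.3 to 406.0. The stromal marker Dcn was at 192.3 in wild type after 24 h of LPS and at 58.2 with EGTA at 24 h, and was at the floor on the other 6 arrays. The part of these other cells in the results below was not tested.

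The stretches upstream of 3 genes are shown, picked for their patterns among the receptors with a promoter entry. Clec4e was higher and Clec7a lower after LPS in both genotypes, and Clec5a differed between genotypes under LPS. All 5 genes lie on mouse chromosome 6. Each stretch is the 250 bases before the annotated start, from RefSeq on GRCm38.p6, read 5′ to 3′ on the gene's strand: Clec4e at chr6:123289872-123290121, Clec5a at chr6:40585806-40586055 and Clec7a at chr6:129472780-129473029, all on the minus strand. Capitals mark matches, on either strand, to 6 motifs: C/EBP (TTNNGNAA), PU.1 (GAGGAA), NFAT (GGAAA), AP-1 (TGANTCA), ISRE (GAAANNGAA) and the NF-kB consensus.
Clec4e: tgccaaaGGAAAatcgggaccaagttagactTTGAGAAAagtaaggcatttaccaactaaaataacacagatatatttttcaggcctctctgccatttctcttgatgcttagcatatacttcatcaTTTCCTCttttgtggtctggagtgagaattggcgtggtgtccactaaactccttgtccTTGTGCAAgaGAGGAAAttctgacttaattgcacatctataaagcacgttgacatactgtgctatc
Clec5a: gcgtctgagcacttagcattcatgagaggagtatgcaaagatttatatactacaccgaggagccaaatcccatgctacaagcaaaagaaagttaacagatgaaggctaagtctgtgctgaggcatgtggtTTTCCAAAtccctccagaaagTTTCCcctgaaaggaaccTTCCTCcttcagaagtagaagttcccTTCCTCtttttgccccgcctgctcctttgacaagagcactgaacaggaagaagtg
Clec7a: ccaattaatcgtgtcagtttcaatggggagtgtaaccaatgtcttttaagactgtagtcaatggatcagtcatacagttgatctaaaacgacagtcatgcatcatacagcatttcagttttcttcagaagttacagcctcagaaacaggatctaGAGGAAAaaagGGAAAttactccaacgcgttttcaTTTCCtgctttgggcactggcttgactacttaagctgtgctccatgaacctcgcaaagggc

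The Clec4e stretch held 2 C/EBP matches, from 219 to 212 and from 66 to 59 bases before the start, with 2 PU.1 and 3 NFAT matches. Clec5a had 1 C/EBP, 2 PU.1 and 2 NFAT matches, and Clec7a had 1 PU.1 and 3 NFAT matches and no C/EBP match. Clec4d, on the plus strand at chr6:123261857-123262106, had 3 C/EBP matches and 1 PU.1 match. None of the 4 stretches held a match to NF-kB, AP-1 or ISRE. Across 32851 promoters of the same length, C/EBP matches were in 36.8%, PU.1 in 23.3%, NFAT in 55.6%, AP-1 in 6.75%, ISRE in 7.13% and NF-kB in 3.9%. PU.1 and NFAT matches can share letters, as at 124 to 118 bases before the Clec4e start, and so can C/EBP and NFAT matches, as at 120 to 113 bases before the Clec5a start. These matches describe letters and not bound sites. For Clec4n no stretch is shown, as it had no promoter entry.

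LPS separated the 5 receptors. In wild type Clec4e was about 8 to 11 times as high as in unstimulated cells, Clec4n and Clec7a were lower, and Clec5a and Clec4d were lower by less than 2-fold. At 6 h, 3 of the 5 genes were at least 2-fold away from unstimulated, against 20% of the 6936 genes compared. Clec4e was the 1 that was higher, against 10.5% of genes, and Clec4n and Clec7a the 2 that were lower, against 9.5%. At 24 h it was the same 3 of 5, against 21.3% of genes, with 10.6% of genes higher and 10.7% lower. The median of the 5 log2 differences was -0.98 at 6 h and -0.83 at 24 h, beside -0.12 and -0.07 for all compared genes. Both times share the unstimulated array. In bulk RNA, fewer cells of a type and less RNA per cell cannot be told apart.

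Clec4e, the Mincle receptor, stood at 1179.2 in unstimulated wild-type cells and at 9536.0 and 12631.4 after 6 h and 24 h of LPS. With EGTA it stood at 8158.8 and 10637.4. In CD14-deficient cells it stood at 125.3 without stimulus and at 13412.7 and 15006.2 after 6 h and 24 h. The 6 LPS arrays were thus all far above both unstimulated arrays, and the unstimulated CD14-deficient array was the lowest of the 8. The fold over unstimulated was 8.09 at 6 h and 10.7 at 24 h in wild type, and 107 and 120 in CD14-deficient cells. The second Clec4e probe set gave 17.8 and 23.5 in wild type and, because its CD14-deficient unstimulated array was at the floor, at least 136-fold and at least 168-fold in CD14-deficient cells. These bounds hold on the normalized scale, and the deposited intensities of that set there, 47.2, 5149.6 and 6582.6, lie somewhat closer together. The 2 probe sets had a correlation of r = 0.99 over the 8 arrays. Their wild-type 6 h responses were 3.02 and 4.15 on the log2 scale, which lie further apart than the 0.87 that 90% of 2747 genes with several probe sets stayed within. The LPS values of the first set lie near the top of the scale, and the part of this in the smaller fold was not tested.

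Clec4n, the dectin-2 receptor, was lowest at 6 h in every series of times, though the EGTA series had no array without LPS. Its wild-type values were 1653.7 without stimulus, 218.0 at 6 h and 547.8 at 24 h. With EGTA they were 201.7 at 6 h and 957.4 at 24 h. In CD14-deficient cells they were 862.4, 172.5 and 770.9. The 3 arrays at 6 h held the 3 lowest values of the 8, and the 24 h arrays lay between them and wild-type unstimulated cells. Clec4n was 7.59-fold lower at 6 h and 3.02-fold lower at 24 h in wild type. In CD14-deficient cells it was 5.0-fold lower at 6 h, and its 24 h value differed from the unstimulated one by a log2 difference of -0.16, which became 0.03 when arrays were scaled to equal medians. From 6 h to 24 h it was 2.51-fold higher in wild type, 4.47-fold higher in CD14-deficient cells and 4.75-fold higher with EGTA. The first of these was 0.86 on the log2 scale, under 2-fold, in the intensities as deposited. The second Clec4n probe set gave 6.9-fold and 3.1-fold lower in wild type and followed the first with r = 0.997.

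Clec7a, the dectin-1 receptor, fell with LPS in the additive fit described below. It stood at 5130.8 in unstimulated wild type, at 1614.9 and 1662.1 after LPS and at 1642.7 and 1797.2 after LPS with EGTA. In CD14-deficient cells it stood at 5600.3, 1913.3 and 943.0. Both unstimulated arrays were high, 5 LPS arrays sat in a narrow band, and CD14-deficient cells at 24 h were lowest. The wild-type folds were 3.18 and 3.09 lower, and the CD14-deficient folds 2.93 and 5.94 lower. In CD14-deficient cells Clec7a was a further 2.03-fold lower at 24 h than at 6 h, which was -0.88 on the log2 scale in the intensities as deposited. The wild-type log2 difference between these times was 0.04.

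Clec5a, the MDL-1 receptor, had LPS differences of opposite sign in the genotypes. Its wild-type values were 641.7 without stimulus, 326.4 at 6 h and 361.8 at 24 h, and 305.4 and 410.7 with EGTA. Its CD14-deficient values were 446.9, 901.7 and 1057.1. The 4 wild-type LPS arrays held the 4 lowest values and the 2 CD14-deficient LPS arrays the 2 highest. Clec5a was 1.97-fold and 1.77-fold lower after LPS in wild type, which did not reach 2-fold but did in the intensities as deposited, at -1.08 and -1.48 on the log2 scale. In CD14-deficient cells it was 2.02-fold and 2.37-fold higher, and the first of these was just under 2-fold without a floor, at 0.99 on the log2 scale, and 0.65 in the intensities as deposited.

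Clec4d, the MCL receptor, varied least, with a ratio of highest to lowest array of 1.8. It stood at 11466.6 in unstimulated wild type, at 7131.6 and 7549.3 after LPS and at 6365.8 and 7760.2 after LPS with EGTA. Its CD14-deficient values were 10081.9, 10154.9 and 10761.8. The 4 wild-type LPS arrays were below all the others. Its log2 differences after LPS were -0.69 and -0.60 in wild type, the second of which was -0.02 with equal medians. They were 0.01 and 0.09 in CD14-deficient cells, where the first was -0.04 in the intensities as deposited. All these values lie in the upper part of the intensity scale, where differences can be compressed, and the part of this was not tested.

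**Figure D1:**
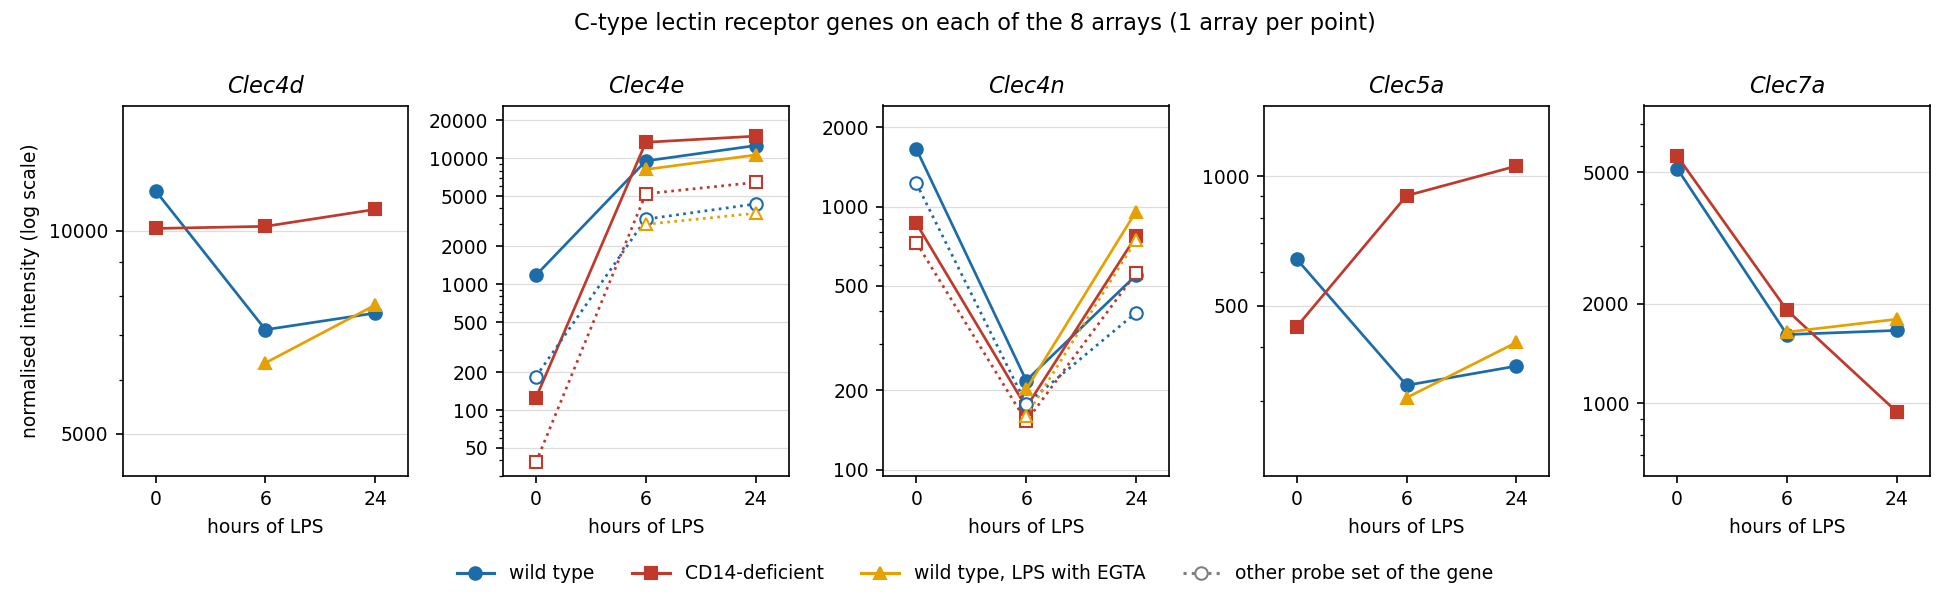
Normalized intensity on a log scale (each panel has its own range) against hours of LPS, placed at equal steps, for the 5 receptor genes. Each point is 1 array, open symbols are the other probe set of Clec4e or Clec4n, and lines join arrays of 1 condition. Clec4e climbs from 125.3 to 15006.2 in CD14-deficient cells, and Clec5a splits by genotype. Clec4n dips at 6 h in both genotypes, and with EGTA, which has no point without LPS, it climbs from 6 h to 24 h.

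In CD14-deficient cells, 4 of the 5 genes were at least 2-fold away from unstimulated at 6 h, against 19.3% of all genes compared. Clec4e and Clec5a were the 2 higher ones, against 10.3% of genes, and Clec4n and Clec7a the 2 lower ones, against 8.99%. At 24 h, 3 of 5 were, against 17.1% of genes. Clec4e and Clec5a were higher, against 8.29%, and Clec7a was lower, against 8.77%. Between 6 h and 24 h, Clec4n alone of the 5 was at least 2-fold apart in wild type, against 11.1% of genes. Clec4n, higher, and Clec7a, lower, were so in CD14-deficient cells, against 10.5%.

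**Figure D2:**
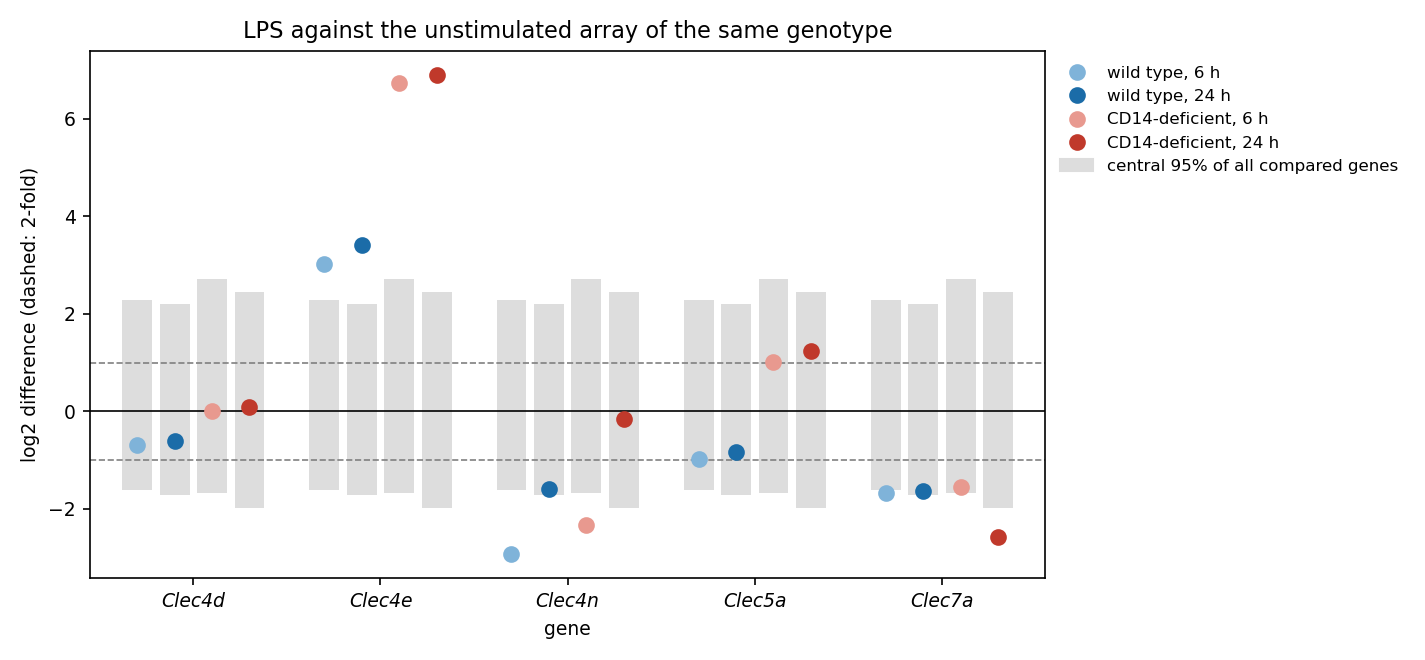
Log2 difference between each LPS array and the unstimulated array of the same genotype for the 5 genes (points, 1 array against 1 array), with dashed lines at 2-fold. Grey bars span the central 95% of all genes compared, which Clec4e exceeds in all 4 comparisons, at 3.02 and 3.42 in wild type and 6.74 and 6.90 in CD14-deficient cells, while Clec5a lies below 0 in wild type and above 0 in CD14-deficient cells.

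An additive limma model over all 8 arrays, with terms for time and condition, was fitted. The error it uses, with 3 residual degrees of freedom, is how far the arrays depart from additivity and not the spread between cultures. LPS at 6 h passed an adjusted p of 0.05 (limma, Benjamini-Hochberg over 8549 genes) for 3 of the 5 genes, against 22.4% of all genes. Clec4e rose by 4.86 (SE 0.88, adjusted p = 0.021), Clec4n fell by 2.71 (SE 0.34, adjusted p = 0.0086) and Clec7a fell by 1.71 (SE 0.30, adjusted p = 0.02), all on the log2 scale. At 24 h Clec4e rose by 5.18 (SE 0.88, adjusted p = 0.019) and Clec7a fell by 1.99 (SE 0.30, adjusted p = 0.016), which made 2 of 5 against 20.7% of genes. Clec4n at 24 h had a log2 difference of -0.79 (adjusted p = 0.16). The fit holds the LPS terms equal in all conditions, which the Clec4e values were not. The single Clec4e differences were 3.02 at 6 h and 3.42 at 24 h in wild type. In CD14-deficient cells they were 6.74 and 6.90, so the fitted terms describe neither genotype.

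These calls did not all hold when single arrays were left out. Each array left out also takes residual degrees of freedom, and the part of this was not tested. When an EGTA array is left out, the EGTA term fits the other exactly. Both of those fits thus rest on the same arrays without EGTA for the LPS terms, and are not separate checks. For Clec4e at 6 h the limma adjusted p became 0.064 without wild-type LPS 6 h, 0.095 without EGTA 6 h, 0.086 without EGTA 24 h and 0.077 without CD14-deficient LPS 6 h. For Clec4n at 6 h it became 0.06 without unstimulated wild type, 0.06 without EGTA 6 h and 0.053 without EGTA 24 h. For Clec7a at 6 h it lay between 0.075 and 0.12 without either unstimulated array, wild-type LPS 6 h or either EGTA array. For Clec4e at 24 h it became 0.063 without wild-type LPS 24 h, 0.097 without EGTA 6 h and 0.089 without EGTA 24 h. For Clec7a at 24 h it became 0.081 without unstimulated wild type, 0.11 without unstimulated CD14-deficient cells, 0.076 without EGTA 6 h and 0.068 without EGTA 24 h. The Clec5a term was -1.04 at 6 h without the unstimulated CD14-deficient array and 1.26 at 24 h without the unstimulated wild-type array. With all arrays these terms were -0.02 and 0.25. Each of the 2 smaller fits has 1 unstimulated array left, of the other genotype, from which its LPS terms are measured. The terms thus lie near the single differences of -0.98 in wild type at 6 h and 1.24 in CD14-deficient cells at 24 h, and are not separate results.

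CD14 deficiency was set against wild type at each time. Without stimulus 1 of the 5 genes, Clec4e, was at least 2-fold apart, 9.41-fold lower in CD14-deficient cells, against 4.6% of 6782 genes. Its second probe set was at least 4.81-fold lower. Clec4n was 1.92-fold lower, and the log2 differences of Clec4d, Clec5a and Clec7a were -0.19, -0.52 and 0.13. After LPS the gene past 2-fold was Clec5a at both times, 2.76-fold higher in CD14-deficient cells at 6 h, against 5.61% of genes, and 2.92-fold higher at 24 h, against 11.4%. Clec4e, so low before stimulation, was 1.41-fold and 1.19-fold higher in CD14-deficient cells after LPS, and the 24 h log2 difference of 0.25 became -0.32 with equal medians. Clec4d was 1.42-fold and 1.43-fold higher at these times, with a 24 h log2 difference of 0.05 with equal medians. Clec7a at 24 h was 1.76-fold lower, which passed 2-fold, at -1.04 on the log2 scale, when arrays were scaled to equal medians.

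The LPS responses themselves were set against each other, as the CD14-deficient log2 response minus the wild-type one. For Clec4e this was 3.73 at 6 h and 3.48 at 24 h, and nearly all of it came from the unstimulated arrays, which differed by -3.23. For Clec5a it was 1.99 and 2.07, with an unstimulated genotype difference of -0.52. For Clec4n it was 0.60 and 1.43, for Clec4d 0.70 and 0.70, and for Clec7a 0.12 and -0.94. At 6 h 2 of the 5 were at least 2-fold apart in response, against 9.38% of 7091 genes, and at 24 h 3 of 5 were, against 12.6% of 7141 genes. The Clec4e and Clec5a values stayed at least 2-fold apart in the intensities as deposited and with equal medians, from 2.77 to 3.64 and from 1.73 to 2.5. With 1 array a group these differences were not tested. In the additive fit none of the 5 genes passed for CD14 deficiency, where 14 of 8549 genes (0.164%) did and 1461 had an unadjusted limma p under 0.05. That fit holds the genotype difference equal at all times, which the Clec4e and Clec5a values were not: their fitted differences were -0.83 (SE 0.75, limma adjusted p = 0.60) and 0.83 (SE 0.43, limma adjusted p = 0.38).

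EGTA left all 5 receptors within 2-fold of LPS alone. At 6 h their log2 differences ran from -0.23 for Clec4e to 0.02 for Clec7a, with -0.16 for Clec4d, -0.11 for Clec4n and -0.10 for Clec5a. None of the 5 was at least 2-fold apart, against 0.816% of 6740 genes, and all lay inside the central 95% of genes, from -0.58 to 0.60. At 24 h Clec4n was 1.75-fold higher with EGTA, and its second probe set 1.89-fold higher. Its log2 difference of 0.81 lay outside the central 95% of genes, from -0.74 to 0.75. The other 4 ran from -0.25 for Clec4e to 0.18 for Clec5a. None of the 5 was past 2-fold at 24 h, against 2.13% of 6754 genes, although Clec4n was, at 1.03, in the intensities as deposited.

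The EGTA 6 h array had the lowest deposited intensities, with a median of all gene differences of -0.78 before normalization. On that deposited scale the 5 genes ran from -0.92 to -0.70, close to that median. In the additive fit for EGTA none of the 5 genes and none of 8549 genes (0%) passed, while 516 genes had an unadjusted limma p under 0.05. Against unstimulated wild type, LPS with EGTA left 4 of 5 genes at least 2-fold away at 6 h, against 21.3% of genes, and 2 of 5 at 24 h, against 23%. These were Clec4e at 6.92-fold and 9.02-fold higher, Clec7a at 3.12-fold and 2.85-fold lower, and, at 6 h, Clec4n at 8.2-fold and Clec5a at 2.1-fold lower. On the deposited scale Clec4d was also past 2-fold lower at 6 h (4913.1 against 12105.2). So were Clec4n (897.0 against 1877.9) and Clec5a (361.7 against 778.8) at 24 h. Clec4n alone was past 2-fold between the EGTA times, against 11.7% of genes.

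**Figure D3:**
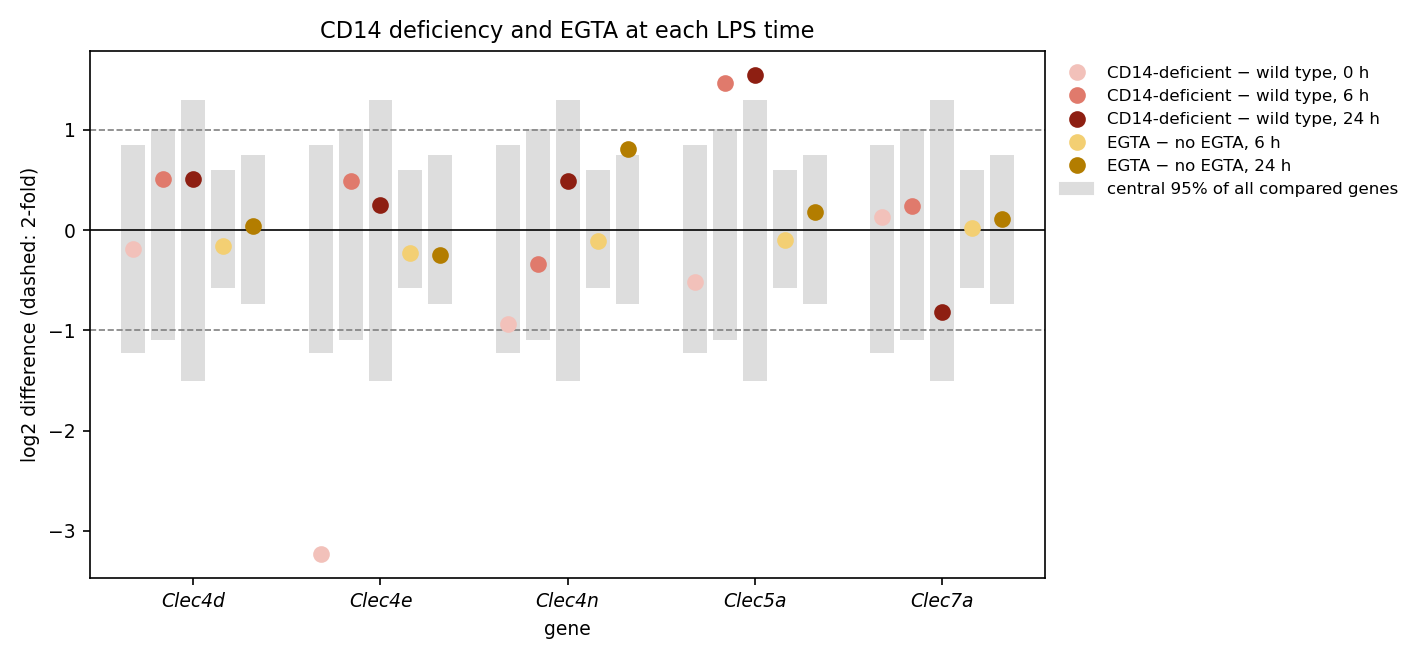
Log2 difference of CD14-deficient against wild type at 0, 6 and 24 h (red) and of LPS with EGTA against LPS alone at 6 and 24 h (yellow), 1 array against 1 array, for the 5 genes, with dashed lines at 2-fold. Grey bars span the central 95% of all genes compared: Clec4e at 0 h, at -3.23, and Clec5a under LPS, at 1.47 and 1.55, lie outside the bar of their comparison among the genotype points, and Clec4n at 24 h, at 0.81, among the EGTA points.

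The patterns of the receptors over the 8 arrays were compared by Pearson correlation of log2 values, as a description without a test, since all points share the same arrays. Clec4e and Clec7a ran opposite, with r = -0.90, and Clec4d and Clec5a ran together, with r = 0.84. The other 8 pairs lay between -0.47 and 0.54. Among 6449 eligible genes, those most like Clec4e were Saa3, an acute-phase protein (r = 0.992), the kinase Ikbke (0.99) and the chemokine Cxcl16 (0.989). Those most like Clec4d were the integrin chain Itgb2 (0.981), Foxo1 (0.978) and Tmppe (0.977). Hscb, Tob2 and Galk2 were most like Clec4n, from 0.984 to 0.971, and Arhgap24, Syngr1 and Dock2 were most like Clec7a, from 0.982 to 0.968. Clec5a had the weakest match, with Rcsd1 at 0.945. These r values leave out the size of change. Foxo1 ran from 80.1 to 116.6, around the filter of 88.2, and Hscb from 190.9 to 364.5, while Saa3 ran from 42.8 to 15887.1.

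Clec4n, Clec4d and Clec4e are neighbours on chromosome 6, in that order in the RefSeq annotation, and their profiles differed. Clec4a2, an inhibitory lectin receptor of the same cluster, stood at 2016.4, 433.0 and 830.7 in wild type at 0, 6 and 24 h, at 446.6 and 1364.1 with EGTA, and at 1060.7, 516.1 and 1863.2 in CD14-deficient cells. It was lowest at 6 h in each condition, as Clec4n was. Next to Clec7a, the scavenger receptor Olr1 was at 199.8 in wild type and 221.6 in CD14-deficient cells at 6 h of LPS, at 65.1 with EGTA at 6 h and at the floor on the other 5 arrays. The EGTA log2 difference of Olr1 at 6 h was -1.62, beside 0.02 for Clec7a.

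The signalling partners of the receptors were looked at through a list of 25 genes, 20 of them on the array. The adaptor chains are named here for their role. Fcer1g had log2 differences after LPS from 0.00 to 0.23 over both genotypes, and Tyrobp from -0.28 to -0.15. In these comparisons both lay between 10281.1 and 13064.3, in the upper part of the scale, where differences can be compressed. The part of this was not tested. Hcst was dimmer, with log2 differences from -0.45 to 0.42. In wild type, 1 partner was higher and 1 lower at 6 h of 18 compared (median 0.09), against 10.5% and 9.5% of all genes. At 24 h 3 of 19 were higher and none lower (median 0.50), against 10.6% and 10.7%. In CD14-deficient cells 5 of 19 were higher and 2 lower at 6 h (median 0.34), against 10.3% and 8.99%, and 6 higher and 1 lower at 24 h (median 0.31), against 8.29% and 8.77%. The medians of all genes in these 4 comparisons lay between -0.13 and -0.04.

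The kinase Src went from 133.9 to 515.6 and 596.5 in wild type and from 49.7 to 808.2 and 367.4 in CD14-deficient cells. Syk, the kinase shared by the receptors, was 1.61-fold and 1.96-fold higher in wild type and 2.96-fold and 2.28-fold higher in CD14-deficient cells. The adaptor Lcp2 was 1.51-fold and 1.8-fold higher in wild type and 3.83-fold and 2.25-fold higher in CD14-deficient cells. The phosphatase Inpp5d, which removes a phosphate from membrane phosphoinositides, was 4.76-fold lower at 6 h in wild type and 3.36-fold lower in CD14-deficient cells. At 24 h it was 1.46-fold and 1.16-fold lower. With EGTA none of 18 partners at 6 h or of 19 at 24 h was past 2-fold, against 0.816% and 2.13% of all genes.

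Of 41 other C-type lectin-like receptors, 32 were on the array and 8 to 11 were bright enough to compare, so most were not above the filter. In wild type 2 were higher and 3 lower at 6 h of 10 compared, against 10.5% and 9.5% of all genes, and 5 higher and 5 lower at 24 h of 11, against 10.6% and 10.7%. In CD14-deficient cells it was 3 higher and 4 lower of 9 at 6 h, against 10.3% and 8.99%, and 4 higher and 4 lower of 10 at 24 h, against 8.29% and 8.77%. A gene entered through the brighter of its arrays, and some called genes were under the filter of 88.2 on the other. In wild type at 24 h these were Klrk1, Clec1b, Clec10a and Colec12. The part of this in the counts was not tested. The mannose receptor Mrc1 stood at 5738.5, 5920.1 and 1655.6 in wild type, 3.47-fold lower at 24 h. Cd93 was 4.83-fold lower at 24 h in wild type and 4.19-fold lower in CD14-deficient cells. Klrk1, the activating receptor NKG2D, was at the floor in unstimulated wild type and at 333.2 and 510.9 after LPS, at least 8.68-fold and at least 13.3-fold higher, and in CD14-deficient cells it was at 47.5 at 6 h and otherwise at the floor. With EGTA, 1 of 10 receptors (Olr1) was at least 2-fold lower at 6 h and 1 of 9 (Cd93, with a log2 difference of 1.04) higher at 24 h, where 0.816% and 2.13% of all genes were past 2-fold in either direction.

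**Figure D4:**
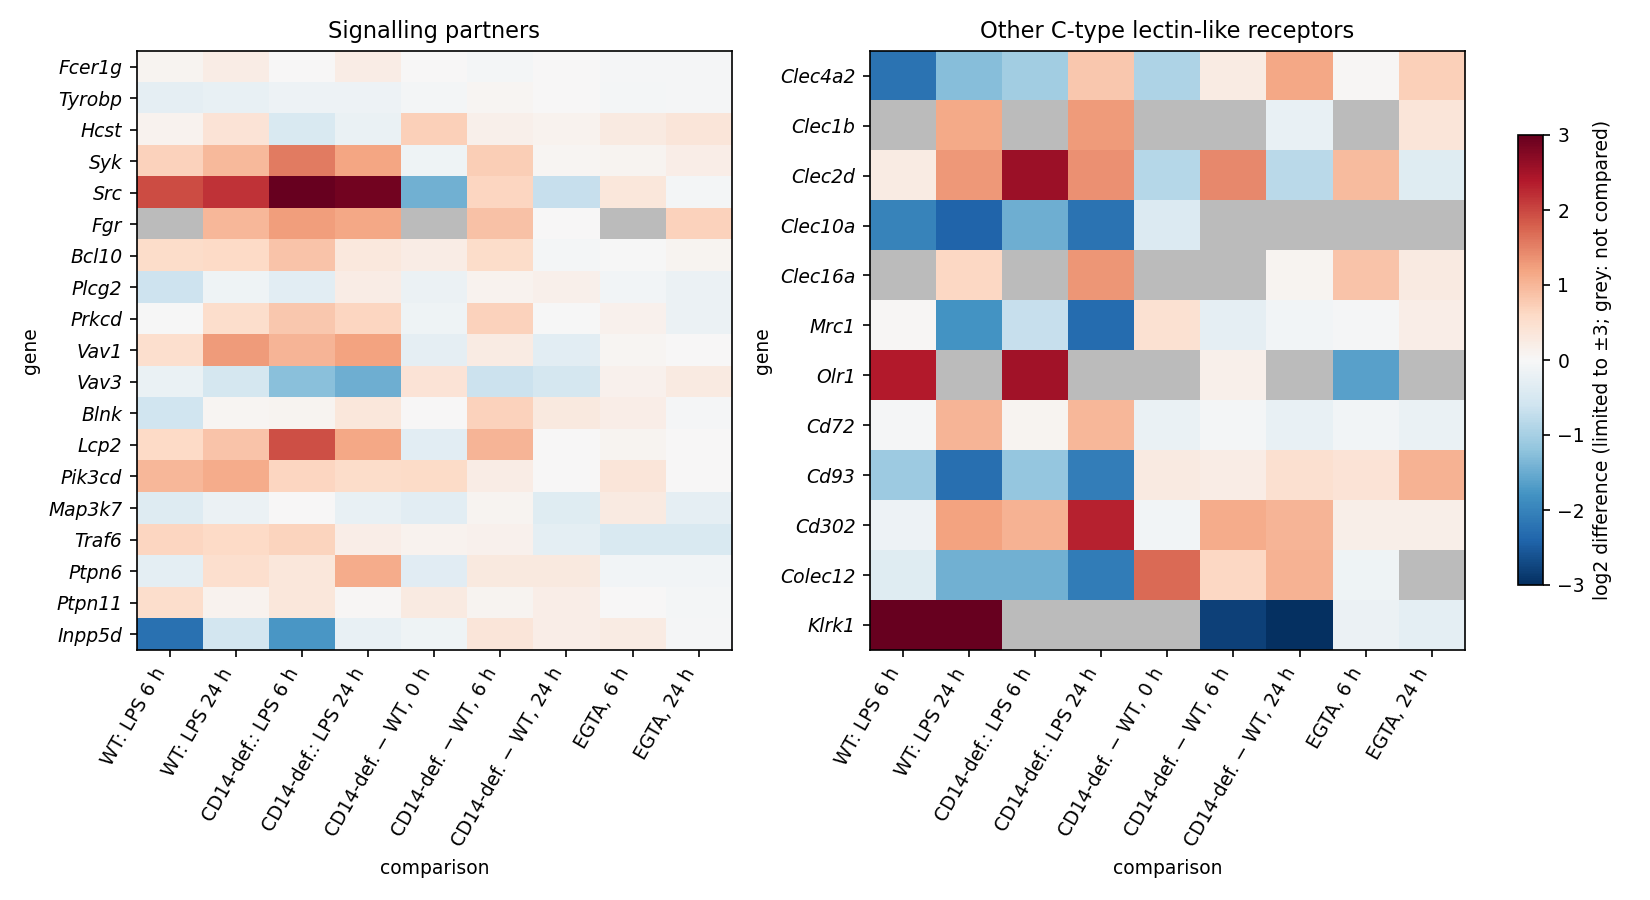
Log2 differences (colour, limited to 3 in either direction, grey where a gene was too dim to compare) of signalling partners (left) and other C-type lectin-like receptors (right) in 9 comparisons of 1 array with 1 array. Src is red in all 4 LPS comparisons, at 1.95 and 2.16 in wild type and 4.02 and 2.89 in CD14-deficient cells. The rows of Fcer1g and Tyrobp, genes in the upper part of the intensity scale, are nearly white. The CD14-deficient Src differences start from an unstimulated value near the floor.

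Genes that dectin-1 signalling is known to raise with NFAT were described through a list of 7, of which 5 were bright enough to compare. With EGTA at 6 h all 5 were lower than with LPS alone, by less than 2-fold, with a median of -0.50 and a range from -0.65 to -0.23. At 24 h the median was -0.14. The median of all genes was 0.01 and 0.00. In CD14-deficient against wild type at 6 h, 1 of 5 was at least 2-fold higher (Egr2, 2.77-fold) and 1 lower (Il10, 3.25-fold). The median there was -0.33, and at 24 h 3 of 5 were lower, with a median of -1.51. Of all genes compared, 5.61% at 6 h and 11.4% at 24 h were past 2-fold in either direction, with a median of 0.02 at each time. The 5 receptors had medians of -0.11 and 0.11 with EGTA.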

How the data were processed

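RNA of 8 macrophage cultures was hybridized to 1 Affymetrix array each. The deposited intensities are linear. MAS5 is the tool that the submitters' processing notes name for them. Scaling and detection calls are not given in the sources used here. Their trimmed means differed between arrays (from 314.2 to 527.4), so quantile normalization was applied, and values were then raised to a floor at the 40th percentile (38.4) and log2 transformed. Quantile normalization removes any true shift of all genes. Gene names came from the platform annotation, updated by gene identifier from RefSeq: 20393 of 22690 had 1 gene, 691 several and 1606 were not listed. Of the 20393, 20364 matched. The probe set of highest mean log2 stood for a gene. A gene entered a comparison if the brighter of its arrays was over 88.2, the median of all values, and was called if at least 2-fold apart. These differences have no test.

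The additive fit used limma 3.58.1 in R 4.3.3, over the 8549 genes not at the floor on every array. Tables and the other scripts used Python 3.11.15 with pandas 2.3.3. The 2-fold calls and the CD14 term of the fit were tested on simulated bright genes with a constant CD14 change. The LPS terms, values near the floor and changes that differ between times were not tested in this way. The named genes are the 5 receptors, the 3 genes most correlated with each among genes above the median and never at the floor, and genes of each list at least 2-fold apart. The members and lists were chosen with earlier results of these data known. Alternatives were other normalizations, floors, dim filters, probe set rules and variance priors, and leaving out arrays. Of RefSeq promoters, 4 receptors had an entry, Clec7a more than 1, of which the first was taken.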

Additional observations from a re-analysis of the deposited data

Results flagged for a closer look

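Some receptors showed opposite signs between the genotypes or between the times, and with 1 array a group none of these differences was tested. The LPS log2 response of Clec5a was below 0 in wild type and above 0 in CD14-deficient cells, with a difference of 1.99 at 6 h and 2.07 at 24 h. Its unstimulated genotype difference, at -0.52, was opposite in sign to those under LPS. Clec4d showed the same opposition of responses, with a difference of 0.70 at 6 h and 0.70 at 24 h, but its CD14-deficient 6 h response of 0.01 was -0.04 in the intensities as deposited. The genotype difference of Clec4e in unstimulated cells, at -3.23, was opposite in sign to those under LPS, of which the 24 h value of 0.25 turned to -0.32 with equal medians.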

How the results depend on the processing

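With 1 array a group, no difference between single arrays has a replicate check, and signal over background could not be judged gene by gene without detection calls. No called difference of the 5 genes changed sign under the alternatives run. Counts of members past 2-fold moved by over 1.5 times in CD14-deficient against wild type at 24 h of LPS, from 1 to 2 genes with equal medians (Clec7a added), and in EGTA at 24 h of LPS, from 0 to 1 gene in the intensities as deposited (Clec4n). On that deposited scale they also went from 3 to 4 for wild-type LPS at both times (Clec5a added) and from 4 to 3 for CD14-deficient LPS at 6 h (Clec5a lost, as without a floor), and Clec4n in wild type and Clec7a in CD14-deficient cells dropped under 2-fold between 6 h and 24 h. LPS with EGTA against unstimulated wild type gained genes on that scale (Clec4d at 6 h, Clec4n and Clec5a at 24 h). Members past an adjusted p of 0.05 in the limma fit ran from 0 to 3 for LPS at 6 h and from 0 to 2 for LPS at 24 h when single arrays were left out, and were 0 without either EGTA array. Each array left out also takes residual degrees of freedom, and the cause was not tested further. They were 0 for CD14 deficiency and for EGTA under every alternative run. With equal medians Clec7a missed the threshold at 6 h (limma adjusted p = 0.051). The deposited scale moved the background: for EGTA at 6 h, the genes past 2-fold numbered 2 higher and 1353 lower, beside 37 and 18 after quantile normalization. For wild-type LPS at 24 h these were 365 and 2199, beside 740 and 742, with an all-gene median of -0.66, and for CD14-deficient against wild type at 24 h 1089 and 215, beside 357 and 425. No paired analysis was possible because each group has 1 array, so replicate numbers pair nothing, while the additive fit already matches arrays by time.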
